A study of Schizosaccharomyces pombe with 20 samples.

Results

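Deletion of aar2, which encodes an assembly factor of the spliceosome, was examined in the fission yeast Schizosaccharomyces pombe on splicing-sensitive microarrays. These arrays hold 3 kinds of probe for an intron-containing gene. Exon probes report total mRNA, intron probes report pre-mRNA, and probes across the junction of 2 exons report mature mRNA. The Δaar2 strain carried a KanR cassette in place of SPAC3H5.04, and its RNA was labelled with Cy3 on 2 arrays from separately grown cultures. The labels name wild-type RNA of strain ED666 as the Cy5 reference on both, and Bioneer as the source of both strains. Cells were grown in 25 ml of YES medium and collected in mid-log phase at an optical density of 0.5. All exon, intron and junction probes measured on both Δaar2 arrays were taken, which gave 12269 of the 14677 on the array. They comprised 4802 of 5098 exon probes, 3154 of 4885 intron probes and 4313 of 4694 junction probes. Most of the missing ones were intron probes, of which 1075 had a value on replicate 1 alone and 235 on replicate 2 alone. The series holds 11 other deletion strains on 18 further arrays, each against a reference with the same label in the same dye. Because no dyes were swapped, an effect of the dye on a probe cannot be told apart from a difference between a deletion and wild type. The same holds for any other way in which the reference differs from all deletion strains. What is shared by all arrays is not part of a difference between strains.

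Aar2 is known from work in Saccharomyces cerevisiae as a partner of Prp8, the large protein at the heart of the U5 snRNP. It holds Prp8 in a precursor particle and gives way to the helicase Brr2 when the mature U5 snRNP forms. The U5 snRNP joins U4 and U6 in the tri-snRNP, which enters the spliceosome before catalysis. In fission yeast introns are short and common, and reduced splicing is expected to add intron signal and remove junction signal, although both levels also depend on how stable each RNA is. For each intron with both probes, the log2 value of the junction probe was subtracted from that of the intron probe on the same array, and this pre-mRNA/mature mRNA ratio was the measure of splicing.

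The deletion was visible in the RNA. The exon probe of aar2 read -4.34 and -6.45 on the log2 scale on the 2 Δaar2 arrays, against -0.88 to 0.0054 on the 16 arrays of the other strains that measured it. The 2 ranges did not overlap. The array held no pair of intron and junction probes for aar2. On 6 of the 18 other arrays the gene that the label names as deleted was not clearly low, with values of -0.93 to 0.59, whereas it lay between -5.09 and -1.19 on the remaining 12. Both arrays labelled smd3 were among those 6, so these are called by their label only, and the counts of calls against wild type for each measure, by intron position and by gene list are given without them as well.

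In the Δaar2 strain the median of the intron probes lay above 0 and that of the junction probes below 0 on both arrays. The median log2 value of the intron probes was 0.27 on replicate 1 and 0.18 on replicate 2. The median of the junction probes was -0.16 and -0.064 on the same arrays. Both medians moved further from 0 on replicate 1. The median of the exon probes was -0.059 on replicate 1 and 0.021 on replicate 2. The deposited values had a median over all probes of -0.0097 on replicate 1 and 0.0 on replicate 2, and it was near 0 on all 20 arrays, so that values are relative to the whole array and a median near 0 for exon probes says nothing of the amount of mRNA. Ratios could be formed for 2803 of 4673 splicing events, with a median of 0.49 on replicate 1 and 0.25 on replicate 2. Of these events, 1778 (63.4%) lay above 0 on both arrays and 324 (11.6%) below 0 on both. The middle 80% of event means ran from -0.23 to 1.05. Because each array compares bulk RNA of 2 cultures, fewer cells with a transcript and less of it per cell cannot be told apart.

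**Figure D1:**
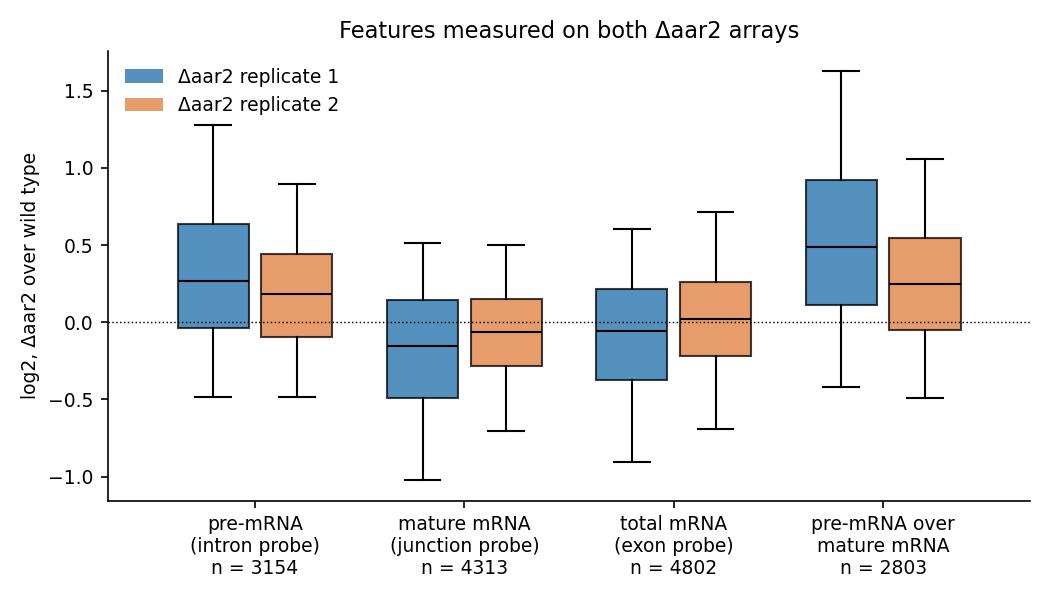
Box plots of the log2 values (Δaar2 over wild type) of intron, junction and exon probes and of the pre-mRNA/mature mRNA ratio on each Δaar2 array; boxes span the quartiles, whiskers the 5th to 95th percentile, and n is the number of features measured on both arrays. The medians of the ratio were 0.49 on replicate 1 and 0.25 on replicate 2, while those of total mRNA were -0.059 and 0.021.

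The mean of the 2 Δaar2 arrays was tested against 0 in a limma fit of all 20 arrays, with 1 mean per strain and a spread shared among the strains. At an adjusted p under 0.05, the pre-mRNA/mature mRNA ratio rose for 103 of 2803 events (3.67%) and fell for 1 (0.0357%). At an unadjusted p under 0.05 the counts were 667 up and 14 down. The 103 rises lay in 94 genes and ranged from 0.87 to 4.55, with a median of 1.41. The count rested on how the spread was estimated. Rises numbered 0 with limma's robust option and its trend, here on the mean log2 ratio of a feature and not its intensity. The count was 635 without the 6 arrays named above and 282 when the Δaar2 arrays were fitted alone. It was also 0 when either Δaar2 array was left out.

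Within the events that rose, the intron probe changed more than the junction probe at the median. Their median log2 value was 0.92 for pre-mRNA, -0.50 for mature mRNA and -0.10 for total mRNA of the gene. The intron probe was above 0 on both arrays in 98 of 103 events, beside 54.6% of all intron probes tested. The junction probe was below 0 on both in 89, beside 47.2% of all junction probes tested. Because the events were chosen for a high ratio, both counts follow in part from the choice. Over all probes the median was 0.21 for pre-mRNA and -0.11 for mature mRNA. The change of the intron probe was larger in size than that of the junction probe in 78 of the 103. Replicate 1 was the higher array in 91 of the 103 events, against 69.9% of all events tested.

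**Figure D2:**
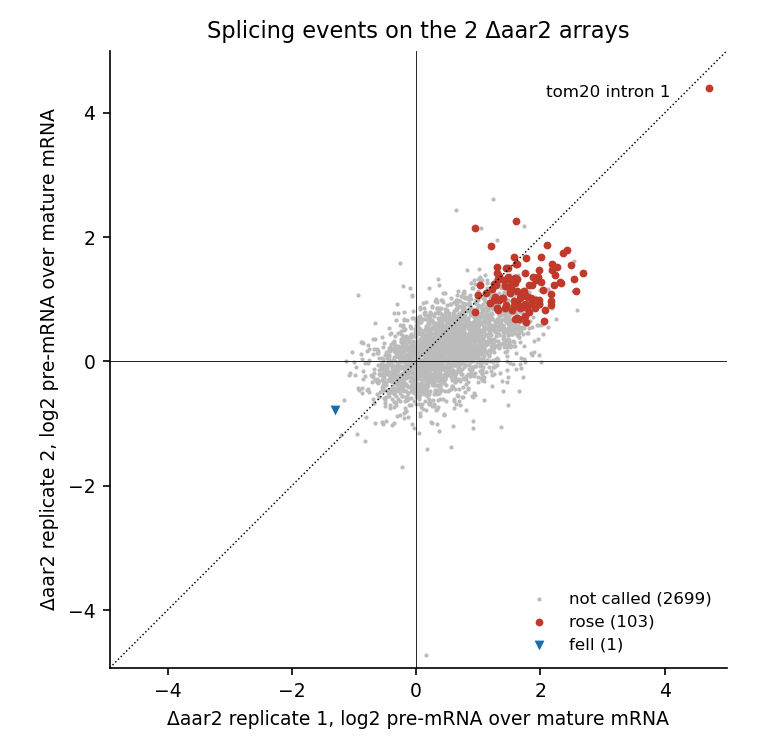
Log2 pre-mRNA/mature mRNA ratio on replicate 1 (x) and replicate 2 (y) of the Δaar2 strain for 2803 events, with the dotted line at equality. The 103 events that rose are in red and the 1 that fell in blue, tom20 intron 1 stands far from all others, and most red points lie below the line.

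The largest rise was in intron 1 of tom20, which encodes a receptor for protein import into mitochondria. Its ratio was 4.71 and 4.39 on the 2 Δaar2 arrays (mean 4.55 ± 0.87 SE, adjusted p = 0.026). The intron probe gave 3.54 and 3.88, and the junction probe gave -1.17 and -0.51. Total tom20 mRNA changed little beside that, at -0.46 and -0.14. The other introns of the gene moved less, with 1.85 and 0.92 for intron 3 (mean 1.39, adjusted p = 0.038), which also rose, and 1.57 and 0.67 for intron 2, which did not pass the test (adjusted p = 0.085). Intron 1 of tom20 was as high in the other strains, where its median was 4.55 and its range 2.15 to 5.16.

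Intron 1 of tos4, a nuclear protein whose gene is expressed at the start of S phase, had ratios of 2.43 and 1.79 (mean 2.11 ± 0.36 SE, adjusted p = 0.026). Its pre-mRNA was at 1.98 and 1.49 and its mature mRNA at -0.45 and -0.30, while total mRNA was at -0.13 and -0.057. Both Δaar2 arrays stood well above the median of the other strains, 0.83, and the highest of those strains reached 2.13. Intron 1 of res1, a DNA-binding subunit of the MBF complex that drives the same wave of transcription, had ratios of 2.31 and 1.28 (mean 1.80 ± 0.32 SE, adjusted p = 0.026), against a median of 0.80 in the other strains. Its intron probe gave 2.06 and 1.26, and its junction probe -0.25 and -0.019. These were 2 rises among the 7 measured events of the MBF genes (28.6%), beside 3.67% of all events. In cdc22, the large subunit of ribonucleotide reductase, the ratio of 1.55 and 0.34 did not pass.

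Several further events rose through their intron probes with little loss of the junction. In intron 2 of ptl3, a lipase gene, pre-mRNA was at 2.39 and 1.34 and mature mRNA at -0.29 and -0.080, which made a ratio of 2.68 and 1.42 (adjusted p = 0.032). Intron 1 of scs2, an anchor protein of the endoplasmic reticulum, had pre-mRNA of 1.96 and 1.54 with mature mRNA of -0.31 and 0.016 (ratio 2.26 and 1.52, adjusted p = 0.042). Intron 1 of cwh43, a gene of GPI anchor remodelling, had pre-mRNA of 1.94 and 1.11 with mature mRNA of -0.26 and -0.37. In these 3 events total mRNA lay between -0.23 and 0.66 on single arrays. Intron 2 of duc1 belonged with them, at 1.85 and 1.42 for pre-mRNA and -0.49 and 0.16 for mature mRNA.

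In other events the junction probe carried as much or more of the change. Intron 1 of mcp7, which encodes a protein of meiotic recombination, had a ratio of 2.55 and 1.33 (adjusted p = 0.032) that came from mature mRNA of -2.30 and -0.91, with pre-mRNA of only 0.25 and 0.41. Intron 1 of taf13, a subunit of the general transcription factor TFIID, had mature mRNA of -1.79 and -0.85 and pre-mRNA of 0.77 and 0.28. Its total mRNA was at 0.067 and -0.30. Intron 1 of SPCC132.03 had mature mRNA of -1.59 and -0.72 and pre-mRNA of 0.52 and 1.15. Of these 3 genes, only mcp7 also had low total mRNA on both arrays, at -1.35 and -0.55.

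Other large rises were spread over unrelated functions. Intron 1 of rib4, an enzyme of riboflavin synthesis, had a ratio of 2.37 and 1.74, with pre-mRNA of 1.69 and 1.17 and mature mRNA of -0.68 and -0.57. Intron 2 of dbp2, a DEAD-box RNA helicase, had a ratio of 1.61 and 2.26 and was the only one of the 15 largest rises in which replicate 2 was the higher array. Intron 1 of dbp2 had 0.61 and 0.44 and did not pass (adjusted p = 0.30). Intron 2 of pup2, a subunit of the proteasome core, had a ratio of 2.23 and 1.40, whereas intron 1 of the same gene lay at -0.16 and -0.066. Intron 1 of mbx1, a MADS-box transcription factor, had 2.49 and 1.55, and the other 2 introns of mbx1 averaged 0.62 and 0.59 without passing.

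**Figure D3:**
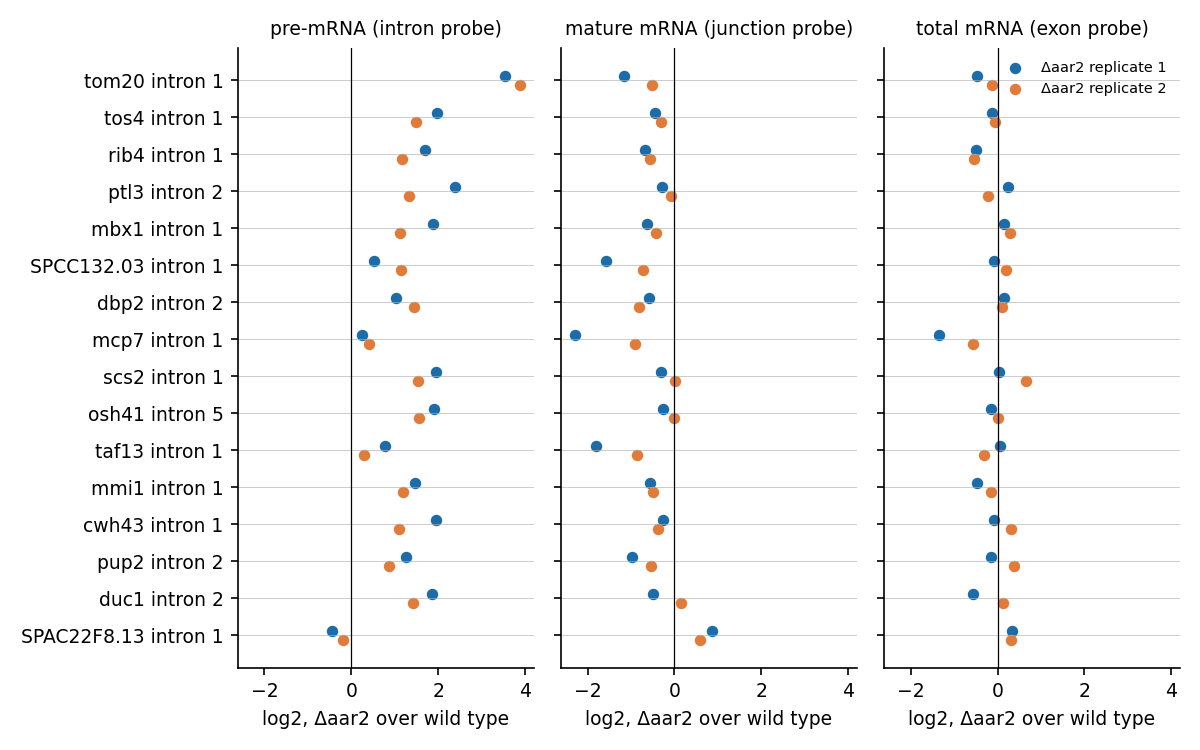
Log2 values (Δaar2 over wild type) of the intron probe, the junction probe and the exon probes of the gene on each Δaar2 array, for the 15 events with the largest rise in ratio and the 1 event that fell. Intron probes of the 15 events lie above 0 on both arrays, junction probes lie below 0 on replicate 1 in all 15 and above 0 on replicate 2 in scs2 and duc1, and total mRNA scatters around 0.

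The 1 event that fell was intron 1 of SPAC22F8.13, at -1.31 and -0.78 (mean -1.04 ± 0.25 SE, adjusted p = 0.036). Its mature mRNA was at 0.86 and 0.58, which was itself a rise (adjusted p = 0.043), and its pre-mRNA at -0.45 and -0.19. The gene's total mRNA was at 0.33 and 0.30. Its second intron had -0.42 and -0.19 and did not pass. The other strains had a median of -0.18 at intron 1, with a range of -0.78 to 0.40.

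Introns of 1 gene differed from each other as well. Among 681 genes with at least 2 events, the SD of the ratio within a gene was 0.42, against 0.49 over all of their events. For scale, the error of the 2-array mean, taken from the difference between the Δaar2 arrays, had an SD of 0.27. In 57 of these genes a single event rose, and in 8 genes 2 or more did. In prr1, a transcription factor of the stress response, 3 of 4 events rose, with means from 0.95 to 1.46 over the 4. Both events of atp1, the alpha subunit of the F1 ATPase, rose, with means of 1.49 and 1.63. In osh41, an oxysterol-binding protein gene, introns 3 and 5 rose, with means of 1.42 and 1.88, while introns 1 and 4 had means of 0.071 and 0.10.

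By position, terminal introns had the highest median ratio and first introns the lowest among genes with several introns. The median was 0.46 over 726 terminal introns, 0.35 over 738 internal introns and 0.25 over 650 first introns, and it was 0.35 over 577 introns of genes with a single one. Rises were called for 34 terminal (4.68%), 27 internal (3.66%), 21 first (3.23%) and 17 single introns (2.95%), beside the 3.67% over all events. Without the 6 arrays named above, rises were called for 198 terminal (27.3%), 156 internal (21.1%), 107 first (16.5%) and 134 single introns (23.2%), beside 22.7% over all events. The order terminal, internal, first held on each array, with medians of 0.61, 0.45 and 0.37 on replicate 1 and 0.33, 0.24 and 0.16 on replicate 2. In the other strains the medians at these positions were 0.38, 0.29 and 0.28. Genes with 6 or more introns had a median ratio of 0.29 over 312 events, with 7 rises. The difference between positions was not tested.

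Pre-mRNA by itself rose for 120 of 3154 intron probes (3.80%) and fell for 0, against 651 and 46 at an unadjusted p under 0.05. Of the 103 events with a raised ratio, 40 also had a called rise in pre-mRNA. The lowest adjusted p among the named rises was that of hom2 intron 1, at 2.11 and 1.64 (mean 1.87 ± 0.29 SE, adjusted p = 0.0080). The gene encodes aspartate semialdehyde dehydrogenase, and its junction probe was at 0.10 and 0.35. Intron 1 of hom3, the aspartate kinase of the same pathway, had pre-mRNA of 2.22 and 1.18 with mature mRNA of 0.64 and 0.65. Intron 1 of odc1 had pre-mRNA of 2.18 and 1.50, mature mRNA of 0.93 and 0.996 and total mRNA of 1.43 and 1.51, so that here all 3 kinds of probe were high. Intron 2 of SPBC16E9.02c (1.61 and 2.38) and intron 1 of SPCC1906.05 (1.78 and 1.64) completed the 10 largest rises with events already named. In the other strains the median pre-mRNA was 2.66 and 1.51 at these introns, 0.94 at hom2, 0.98 at hom3 and 1.28 at odc1. A difference of pre-mRNA alone from the other strains was not tested. The count of rises was 5 with trend and robust estimation and 600 without the 6 arrays named above. Leaving out replicate 1 gave 0 rises and leaving out replicate 2 gave 29.

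Mature mRNA fell for 15 of 4313 junction probes (0.348%) and rose for 5 (0.116%), beside 825 down and 274 up at an unadjusted p under 0.05. The largest falls were at intron 1 of SPAC18B11.09c, at -1.72 and -1.36, and at intron 1 of ypa1, an activator of protein phosphatase 2A, at -1.52 and -1.36 (adjusted p = 0.043 for both). Total mRNA of SPAC18B11.09c was also low, at -1.58 and -1.01, whereas that of ypa1 was at 0.72 and -0.068. Intron 1 of set7, a histone methyltransferase gene, had -1.71 and -0.82, and intron 1 of rex4, an RNA exonuclease gene, had -1.41 and -0.86. In these 2 genes total mRNA was low as well, at -0.69 and -0.93 for set7 and -1.01 and -1.10 for rex4. Intron 2 of urm1 (-1.55 and -0.99) and intron 5 of SPAC22F3.01 (-1.23 and -1.08) fell with less change of total mRNA. In the other strains the median mature mRNA was -1.15 for SPAC18B11.09c, -0.85 for ypa1 and -1.04 for set7. It was -0.63 for rex4, -0.78 for urm1 and -0.48 for SPAC22F3.01, and a difference of mature mRNA alone from those strains was not tested.

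The 5 rises of mature mRNA were moderate. Intron 1 of pfa3, a palmitoyltransferase gene, had 0.97 and 1.15, and intron 4 of mpn1, the exonuclease that trims the end of U6 snRNA, had 0.69 and 0.87. Total mRNA of both genes was high too, at 0.64 and 0.68 for pfa3 and 0.53 and 0.78 for mpn1. The others were pex6 (0.84 and 0.59), xks1 (0.62 and 0.68) and SPAC22F8.13. Medians in the other strains were 0.76 for pfa3, 0.54 for mpn1, 0.53 for pex6, 0.70 for xks1 and 0.27 for SPAC22F8.13. Counts of mature mRNA depended on the fit, with 341 falls and 94 rises without the 6 arrays named above and 0 of each with trend and robust estimation. Without replicate 1, which also changes the Δaar2 mean, there were 0 of each. Without replicate 2 there were 33 falls and 1 rise.

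A gain of pre-mRNA together with a loss of mature mRNA at the same intron was called for no event. Only 15 falls of mature mRNA were called at all. Among 2760 events with all 3 kinds of probe, 629 (22.8%) had pre-mRNA above 0 and mature mRNA below 0 on both arrays, and 52 (1.88%) had the opposite. The product of the separate shares of events with pre-mRNA above 0 and with mature mRNA below 0 was 26.3% (727 events). That product takes the 2 signs as independent, whereas pre-mRNA and mature mRNA were positively correlated across 2803 events (Pearson r = 0.27). It therefore cannot decide whether gain and loss go together. In 495 events both were above 0 on both arrays and in 267 both were below. Both changes were called in opposite directions for 0 events, and at an unadjusted p under 0.05 pre-mRNA was up and mature mRNA down in 68. Setting the junction probe against the exon probe of its gene, which removes the change of total mRNA, gave 104 falls (2.44%) and 15 rises (0.352%) among 4259 junctions, or 100 falls and 13 rises without the 6 arrays named above. Setting the intron probe against the exon probe gave 0 calls in either direction among 3082 introns, with 569 up and 44 down at an unadjusted p under 0.05. That last count also depended on the arrays fitted, with 334 rises and 13 falls without the 6 arrays named above.

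Few changes of total mRNA passed this test. It fell for 3 of 4802 exon probes (0.0625%) and rose for 1 (0.0208%), while 656 were down and 582 up at an unadjusted p under 0.05. The 3 falls were aar2 itself, mat1-Mc and rds1, and the rise was SPCPJ732.04c at 1.12 and 1.34 (adjusted p = 0.042). The gene rds1 had -1.53 and -1.20, against a median of -1.01 in the other strains. The count was sensitive to the fit, with 181 falls and 149 rises without the 6 arrays named above, and 578 falls and 322 rises from the 2 Δaar2 arrays alone. A term for the replicate number raised it as well, as given under the dependence on processing. With either Δaar2 array left out, 1 fall was called.

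Some of the lowest values were low in every strain. At such genes a difference between the reference and all deletion strains cannot be told apart from an effect of the aar2 deletion. Whether the reference otherwise shares the genotype of the deletion strains was not tested. The mating-type gene mat1-Mc was at -4.24 and -4.22 in the Δaar2 strain, and the other strains ran from -5.03 to -2.03 with a median of -3.98. The following genes were picked after their values were seen. The gene for a precursor of the mating pheromone M-factor, mfm2, was at -4.57 and -5.12 (adjusted p = 0.052) against a median of -4.98. The uracil synthesis gene ura4 was at -4.71 and -6.49 (adjusted p = 0.066) against a median of -5.62 and a range of -6.57 to -3.47. At the other end, the subtelomeric gene gdt1 had 4.40 and 3.45 (adjusted p = 0.10), with -1.07 to 4.12 in the other strains. None of these 4 passed the test against the mean of the other strains, where the lowest adjusted p was 0.64.

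Genes without an intron probe had a median total mRNA of 0.013 over 2532 probes. It was -0.082 over 1002 probes of genes with 1 intron, -0.031 over 1191 with 2 to 5 and 0.13 over 77 with 6 or more. None of the 3 groups with introns held a called change. The medians of the same groups in the other strains were 0.024, -0.055, -0.014 and 0.061, in the same order.

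Among the genes of the splicing machinery, those of the U5 snRNP and tri-snRNP were followed one by one. Of 14 exon probes for 13 genes, only that of aar2 passed the test. The probe of spp42, the fission yeast Prp8 and the partner of Aar2, read 0.16 and 0.43 (adjusted p = 0.19). Brr2 mRNA read -0.21 and 0.49, and that of cwf10, the GTPase of the U5 snRNP, -0.0060 and 0.58. For these 3 core components the lowest value on either array was thus -0.21. The values of prp1, prp31, rna4, snu66, spf38 and snp27 (SPCC162.01c) lay between -0.30 and 0.23 on both arrays.

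Apart from aar2, the lowest values of that group belonged to 2 genes of factors that join the spliceosome with the tri-snRNP. The 2 probes of snu23 read -0.97 and -0.47 and -0.57 and -0.52 (adjusted p = 0.093 and 0.097). The probe of prp38 read -1.03 and -0.45 (adjusted p = 0.13), and that of dim1, a small U5 protein, -0.44 and -0.35. The medians of the other strains were -0.14 and -0.023 for the snu23 probes, -0.44 for prp38 and -0.42 for dim1. The lowest strain mean among the others was -0.58 and -0.63 for the snu23 probes. The Δaar2 means were -0.72 and -0.54, so that the first probe lay below the range of those strains and the second within it. Of the 4 values on single Δaar2 arrays, only -0.97 lay outside that range of means. Of the 6 measured events of these genes none was called. Intron 2 of dim1 had a ratio of 1.37 and 0.98 (adjusted p = 0.067) and intron 2 of spf38, a WD-repeat protein of U5, 0.95 and 0.95 (adjusted p = 0.11), while intron 3 of cwf10 had -0.085 and -0.70.

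Over all 88 genes of the splicing lists, 2 of 76 events rose (2.63%), beside 3.67% of all events, and the median ratio was 0.35 beside 0.37. Both rises were in subunits of the LSm ring that binds U6 snRNA. Intron 1 of lsm6 had 1.89 and 1.36 (adjusted p = 0.041), with mature mRNA of -1.08 and -1.04 and pre-mRNA of 0.81 and 0.32. Intron 2 of lsm2 had 1.43 and 1.21 (adjusted p = 0.036), whereas intron 3 of the same gene had 0.41 and 0.35. Total mRNA of lsm6 was at -0.68 and -0.95 and that of lsm2 at -0.22 and -0.16. The 26 Sm and LSm events had a median of 0.27. The 8 events of U2 snRNP and U2AF genes had a median of 0.65 and 0 calls. Of these, 7 lay above 0 on both arrays, beside 63.4% of all events. The 4 events of helicases and step factors had a median of -0.34.

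Genes of RNA decay and elimination held 2 rises among 24 events (8.33%), beside 3.67% of all events, and their median of 0.38 was near the 0.37 of all events. One was intron 1 of mmi1, the RNA-binding protein that marks meiotic transcripts for destruction, at 2.02 and 1.68 (adjusted p = 0.026), with pre-mRNA of 1.46 and 1.19 and mature mRNA of -0.55 and -0.49. The other was intron 2 of red1, a partner of Mmi1 in that pathway, at 1.66 and 0.69 (adjusted p = 0.042). Total mRNA was at -0.47 and -0.14 for mmi1 and 0.10 and 0.38 for red1. Among 17 meiotic genes, which include targets of Mmi1, the 16 exon probes had medians of -0.40 and 0.18 on the 2 arrays and 0 calls. Of their 9 events only that of mcp7 rose, and the median was -0.26.

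Of the ribosomal protein genes none had a called change of total mRNA, and most had values below 0. Total mRNA had a median of -0.79 on replicate 1 and -0.27 on replicate 2 over 74 ribosomal protein genes, beside -0.059 and 0.021 over all probes. It was below 0 on both arrays in 50 of the 74 genes and above 0 on both in 2, beside 1794 and 1668 of all 4802 exon probes, and 0 were called. At an unadjusted p under 0.05, 26 of the 74 were down and 0 up, beside 656 and 582 of all 4802. Their junction probes had medians of -0.89 and -0.45, and their intron probes -0.13 and 0.0041. Of their 48 events 2 rose (4.17%), beside 3.67% of all events, and the median ratio was 0.50 beside 0.37. The rises were at intron 1 of rpl35 (2.17 and 0.97, adjusted p = 0.032) and intron 1 of rps2402 (1.57 and 0.98, adjusted p = 0.050). In the other strains the median total mRNA of ribosomal protein genes was -0.42. Only 74 of 134 such genes were measured on both Δaar2 arrays, and genes with near-identical copies may share signal.

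Genes of ribosome biogenesis, which make and assemble the ribosome's parts, had a median total mRNA of -0.087 over 81 probes, against -0.27 in the other strains, with 0 calls. The difference between these genes and the ribosomal protein genes was not tested. The 23 events of the biogenesis genes held 2 rises (8.70%, beside 3.67% of all events), at intron 2 of utp23 (1.97 and 0.93) and intron 1 of noc12 (1.72 and 1.08), and had a median ratio of 0.51. The stress list, which leaves out prr1 named above, held 8 events in 4 genes. Of these 1 rose (12.5%, beside 3.67% of all events), at intron 2 of grx1, a glutaredoxin gene (1.31 and 0.82, adjusted p = 0.048). The median of the 8 events was 0.86. All 8 lay above 0 on both arrays, beside 63.4% of all events. Of 42 events in cytoskeletal genes 1 rose (2.38%), at intron 2 of adf1, which encodes cofilin (1.70 and 0.89, adjusted p = 0.036), and the median was 0.31.

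The remaining lists were described by total mRNA. Genes of iron uptake differed between the 2 Δaar2 arrays, with str3, a siderophore transporter, at -3.46 and -0.32 and fio1, an iron oxidase, at -2.64 and -0.38. The 14 iron genes had medians of -0.32 and 0.067 and held 0 calls. The 3 measured phosphate genes were above 0 on both arrays, with vtc4, a subunit of the polyphosphate polymerase, at 0.93 and 0.97 (adjusted p = 0.080). The 8 measured histone genes had a median of -0.13, the 7 heat shock genes -0.017, the 10 genes of hexose transport and glycolysis 0.28 and the 132 subtelomeric genes -0.017, with 0 calls in each. The 21 mating and nitrogen genes had a median of -0.23 and 1 call, mat1-Mc.

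Without the 6 arrays named above more members of these lists passed, as did more of all features. The ratio then rose for 19 of 76 events of the splicing lists (25.0%), 3 of 7 of MBF genes, 9 of 24 of RNA decay (37.5%), 18 of 48 of ribosomal protein genes (37.5%), 6 of 23 of ribosome biogenesis (26.1%), 6 of 8 of stress genes and 5 of 42 of cytoskeletal genes (11.9%), beside 22.7% of all events. Among the meiotic genes 1 of 9 events rose and 1 fell. Total mRNA fell for 11 of 74 ribosomal protein genes (14.9%) and rose for 0, beside falls of 3.77% and rises of 3.10% of all probes. It fell for 8 and rose for 2 of 89 probes of the splicing lists, where aar2 is included, and fell for 6 and rose for 1 of 21 probes of mating and nitrogen genes. Subtelomeric genes had 14 rises and 3 falls among 132 probes. Phosphate genes had 2 rises among 3 probes, and genes of hexose transport and glycolysis 2 among 10, with 0 falls in both lists. Iron genes had 1 rise and 1 fall among 14 probes, and the histone and heat shock genes had 0 calls.

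The study followed 2 introns individually in its screen of deletion strains. Intron 1 of fet5, a GTPase gene, had a ratio of 1.14 and 0.96 in the Δaar2 strain (mean 1.05 ± 0.42 SE, adjusted p = 0.16). Its pre-mRNA was at 1.14 and 1.15 and its mature mRNA at 0.0020 and 0.18. The other strains had a median of 1.39 and a range of 0.35 to 2.53, and the Δaar2 values lay within that range. Intron 2 of pwi1 was measured on only one Δaar2 array and was left out.

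How far the change was particular to the Δaar2 strain was asked by setting it against the other 11 strains, which share the wild-type label and the dye orientation. Over events measured in both, the median ratio of 7 strains lay below that of Δaar2 and that of 4 strains above it. Differences taken event by event did not give the same order for every strain. For SPAC20H4.06c, counted as above, the median of Δaar2 minus the strain was 0.028, with 53.3% of events higher in Δaar2. For ppn1, counted as below, that median was -0.0068, with 49.4% of events higher in Δaar2. The strain medians ran from 0.12 in ash2 to 1.08 on the arrays labelled smd3. Against pwi1, the medians were 0.45 in Δaar2 and 0.42 in pwi1 over 1520 events. Against ssu72 they were 0.45 in Δaar2 and 0.28 in ssu72 over 1286 events. Of the 4 strains above Δaar2, smd3 and SPAC18G6.13 had both arrays, and ctr1 1 of its 2, among the 6 on which the deleted gene was not clearly low, and so had SPCC162.01c its only array among the 7 strains below. Single strains also differed between their arrays, with medians of 0.12 and 1.03 on the pair of ctr1 arrays and 0.27 and 0.59 on the pair of pwi1 arrays.

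The mean of Δaar2 minus the equally weighted mean of the other strains was tested for 1793 events measured in at least 8 of them. By limma 0 events were higher in Δaar2 and 0 lower, and the lowest adjusted p was 0.98. At an unadjusted p under 0.05, 33 were higher and 24 lower. The median difference was 0.0041, and the median SE for a single event was 0.33, so that differences of that size could not be resolved. Of the 103 events that rose against wild type, 96 entered this test. Their median difference was 0.47, with 0.94 as the median of the other strains' mean, and 20 had an unadjusted p under 0.05. Since they were chosen for a high value in Δaar2, this is a description.

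At single introns the difference from the other strains was largest, among the 15 named rises, for tos4. Its mean was 2.11 in Δaar2 and 0.89 in the other strains, a difference of 1.22 ± 0.38 SE. Intron 1 of mmi1 had 1.85 in Δaar2 and 0.95 in the other strains, and intron 1 of cwh43 had 1.84 and 0.93. For tom20 the means were 4.55 in Δaar2 and 4.21 in the other strains. The adjusted p was 0.98 for each of these 4.

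**Figure D4:**
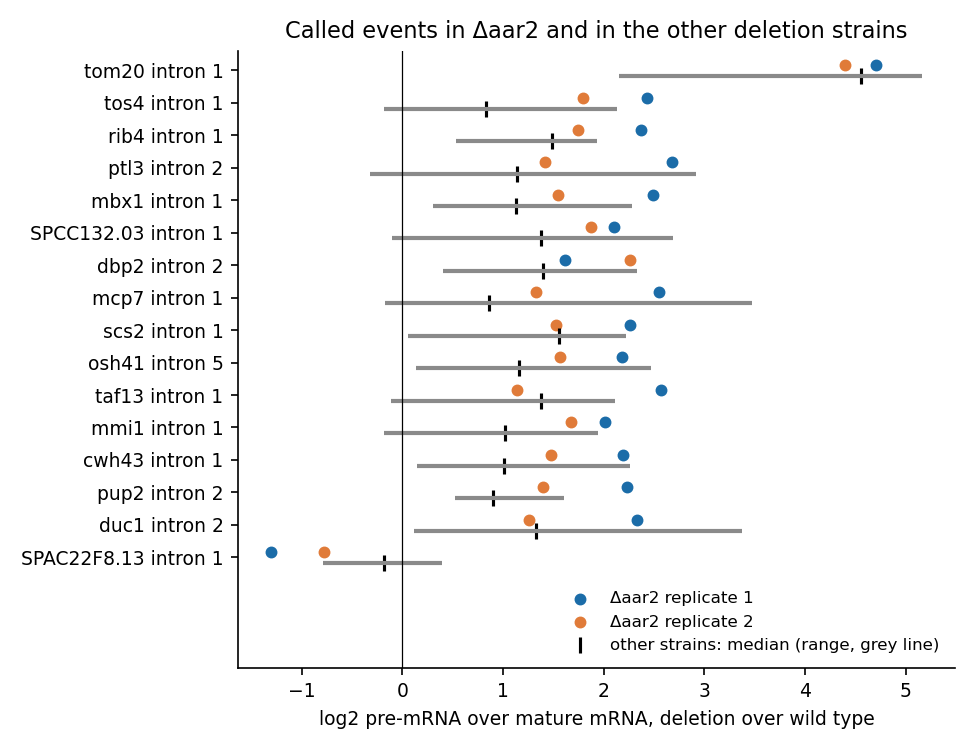
Log2 pre-mRNA/mature mRNA ratio on each Δaar2 array (points) and in the other deletion strains (grey line from the lowest to the highest strain, black tick at the median) for the 15 events with the largest rise and the 1 that fell. The point of replicate 1 lies outside the range of the other strains in 8 of the 16 events and that of replicate 2 inside it in all 16, and tom20 intron 1 is high in every strain. The range is of strain means, whereas the points are single arrays, and the events were chosen for their Δaar2 values.

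Compared with the arrays labelled smd3, the Δaar2 strain had a lower ratio at many introns. Of 1639 events measured on all 4 arrays, 272 were lower in Δaar2 (16.6%) and 0 were higher. The median over all 1639 was 0.41 in Δaar2 and 1.08 on the arrays labelled smd3. The 272 events lay in 240 genes. Their median was 0.35 in Δaar2 and 2.08 on the arrays labelled smd3, and 11 of them were among the rises of Δaar2 against wild type. The number lower in Δaar2 was 28 without Δaar2 replicate 1, 0 without Δaar2 replicate 2, and 155 and 134 with the first and second smd3 array left out.

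The largest of these differences was at intron 4 of gnd1, a dehydrogenase gene of the pentose phosphate pathway, with 0.71 and 0.48 in Δaar2 against 4.15 and 3.14 on the arrays labelled smd3 (difference -3.05 ± 0.52 SE, adjusted p = 0.0061). Intron 2 of igo1 had 0.70 and 0.074 in Δaar2 against 3.49 and 3.38 on the arrays labelled smd3. Intron 1 of spo20, a phospholipid transfer protein gene, had 0.43 and 0.33 in Δaar2 against 3.56 and 3.02 on the arrays labelled smd3. These introns were named for their large difference, so a gap between Δaar2 and the arrays labelled smd3 follows from the choice. On the remaining arrays of the series these introns reached at most 2.06. Intron 2 of spo20, by contrast, was among the rises of Δaar2, at 2.08 and 0.83. The smd3 exon probe itself read -0.90 and -0.61 in the Δaar2 strain, against -0.50 and -0.93 on the arrays labelled smd3.

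Compared with pwi1, which lacks a splicing factor with an RNA-binding PWI domain, the Δaar2 strain differed at a small set of introns. Of 1520 events, 21 were lower in Δaar2 (1.38%) and 0 were higher, and the median difference over all events was 0.0014. The 21 events lay in 21 genes. Their median was 0.055 in Δaar2 and 3.52 in pwi1, and 0 of them were among the rises of Δaar2. Intron 1 of ecm14 had -0.78 and 0.26 in Δaar2 against 5.72 and 5.30 in pwi1 (difference -5.77 ± 0.39 SE, adjusted p = 2.6e-07). Intron 1 of wbp1, a subunit of the oligosaccharyltransferase, had -0.52 and -0.12 in Δaar2 against 5.89 and 3.08 in pwi1. Intron 3 of mms19 had -0.43 and 0.45 in Δaar2 against 4.90 and 3.69 in pwi1. The number lower in Δaar2 was 12 without either Δaar2 array or the first pwi1 array. These 3 events were named for their large difference, so a gap between Δaar2 and pwi1 follows from the choice. On the remaining arrays the highest values were 0.85 for ecm14, 2.80 for wbp1 and 1.71 for mms19.

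**Figure D5:**
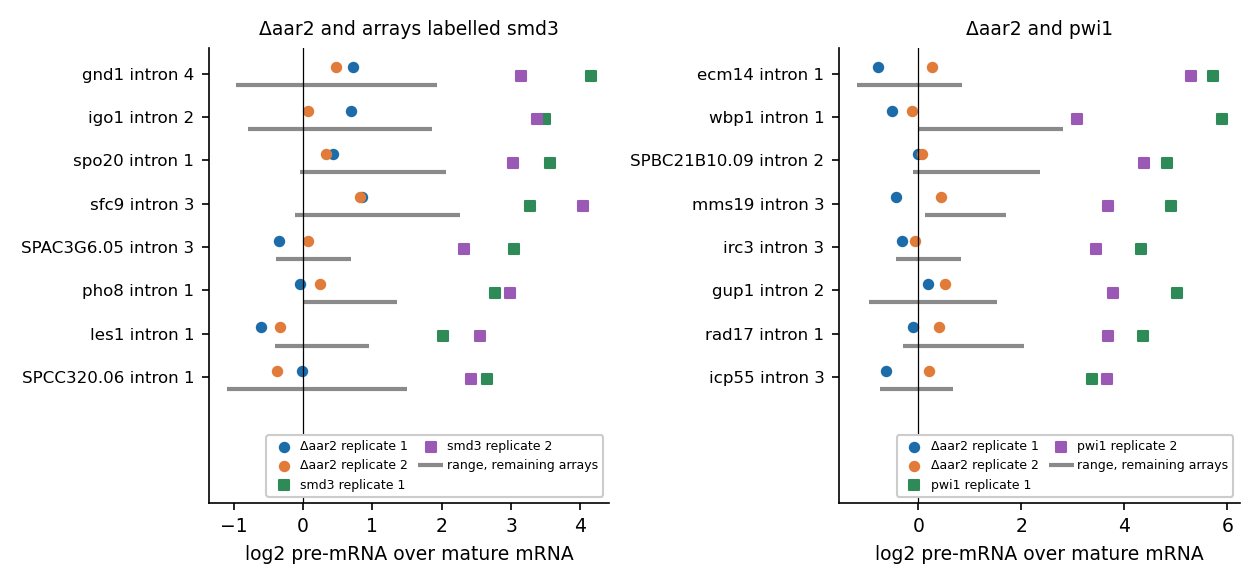
Log2 pre-mRNA/mature mRNA ratio for the 8 events with the largest difference between Δaar2 and the arrays labelled smd3 (left) and between Δaar2 and pwi1 (right); circles are Δaar2 arrays, squares the other 2 arrays, and the grey line spans the remaining arrays. The Δaar2 points lie among the remaining arrays or below them, while the squares lie at 2.02 or above in every event.

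For total mRNA, 1 of 4733 probes was lower in Δaar2 than in the mean of the other strains (0.0211%) and 0 were higher, beside 227 lower and 175 higher at an unadjusted p under 0.05. The 1 probe was that of aar2, with a difference of -5.09. Without the 6 arrays named above, 8 were lower and 1 was higher.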

How the data were processed

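Total RNA of each deletion strain (Cy3) and of wild type (Cy5) was hybridised to a 2-colour Agilent array by the authors, who deposited log2 ratios of deletion over wild type for each probe. Scanning, background correction, normalisation and centring of those values were not given in the sources used here. Nor was it stated whether 1 wild-type RNA served all arrays. The 2 deposited tables held equal values in all 304160 cells, so 1 was used. Signal over background is unknown, and the number of arrays limits the precision. Of 5081 gene IDs, 4806 matched RefSeq, which gave a symbol for 4014.

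The ratio was the intron probe minus the junction probe within an array. limma 3.58.1 (R 4.3.3) fitted 1 mean per strain over all 20 arrays, and the Δaar2 mean was tested against 0 or against other strains, with Benjamini-Hochberg adjustment over the features of 1 type and a threshold of 0.05. Replicates were separately grown cultures. The fit was tested on simulated data. Named were aar2, fet5 and pwi1 introns, the largest called changes of each measure (up to 15 rises and 5 falls for the ratio, 10 and 5 for pre-mRNA, 8 and 8 for mature and total mRNA), called members of gene lists, all U5 and tri-snRNP genes, other introns of named genes, and the largest differences between strains. Alternatives changed the arrays fitted, the prior, the replicate block, the centring and the filter on missing values. The members and lists were chosen with earlier results of these data known.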

Additional observations from a re-analysis of the deposited data

Results flagged for a closer look

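The following results differed between the Δaar2 strain and other strains by a test of the difference itself. Total mRNA was lower in Δaar2 than in the mean of the other strains for 1 probe, that of aar2, with a difference of -5.09.

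The pre-mRNA/mature mRNA ratio was lower in Δaar2 than on the arrays labelled smd3 for 272 events. The largest differences were -3.05 at intron 4 of gnd1, -3.05 at intron 2 of igo1, -2.91 at intron 1 of spo20 and -2.83 at intron 3 of sfc9, a subunit of transcription factor TFIIIC. The last had ratios of 0.85 and 0.82 in Δaar2 against 3.28 and 4.04 on the arrays labelled smd3. On those arrays the exon probe of smd3 read -0.50 and -0.93, and the part of this in the 272 differences was not tested.

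The ratio was lower in Δaar2 than in pwi1 for 21 events. The largest differences were -5.77 at intron 1 of ecm14, -4.80 at intron 1 of wbp1, -4.57 at intron 2 of SPBC21B10.09 and -4.29 at intron 3 of mms19. Intron 2 of SPBC21B10.09 had 0.0023 and 0.067 in Δaar2 against 4.83 and 4.38 in pwi1.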

How the results depend on the processing

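The counts of changes in Δaar2 against wild type depended on the fit. In the Δaar2 arrays alone the rises and falls were 282 and 4 for the ratio, 553 and 43 at intron probes, 112 and 613 at junction probes and 322 and 578 at exon probes. Without the 6 arrays on which the deleted gene was not low they were 635 and 11, 600 and 44, 94 and 341, and 149 and 181, and against the other strains 1 total mRNA probe was higher and 8 were lower, while 33 events were lower than in pwi1. Trend and robust estimation gave 0 and 0, 5 and 0, 0 and 0, and 0 and 1. With the replicate block there were 245 and 6, 160 and 7, 136 and 477, and 371 and 436, and 3 events were higher and 354 lower than on the arrays labelled smd3. The labels do not say what a replicate number marks. Same-numbered arrays mostly deviated together, with r over 0.1 in 27 of 28 strain pairs for the ratio and 24, 25 and 26 for the 3 kinds of probe. This did not hold in every pair (lowest -0.028, for mature mRNA, and 0.047 for the ratio). The numbers were not taken as pairs, and the main fit treats the arrays as independent. Of features measured on all 20 arrays, the ratio rose in 77 and fell in 0, pre-mRNA fell in 6, and total mRNA changed in 0. Centring on exon probes gave 4 rises and 6 falls of total mRNA. The intron minus the exon probe gave 0 and 0.

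With 1 Δaar2 array left out, on the assumption that the remaining one varied like those of other strains, counts ran from 0 to 0 for both directions of the ratio, 0 to 29 rises of pre-mRNA, 0 to 1 rises and 0 to 33 falls of mature mRNA, and 0 to 0 rises and 1 to 1 falls of total mRNA. With 1 array of either strain left out, 0 to 155 events were lower and 0 to 2 higher than on the arrays labelled smd3, and 12 to 19 lower and 0 to 1 higher than in pwi1. In these fits and with the block, features with no residual degrees of freedom were not tested. Against the mean of the other strains, the ratio gave 0 calls under every alternative run. Leaving out the reference arrays, and the probes with a prefix (110 rises and 1 fall of the ratio), was chosen after seeing the data. The series matrix held the same values, so it was not run.

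Of 784 values of single genes or events, 571 kept direction and call, 180 lost the call, 25 gained it and 8 changed sign. With 1 Δaar2 array left out, the ratio ran from -0.064 to 1.30 at mbx1 intron 2, -0.21 to 0.87 at mmi1 intron 3, -0.16 to 0.30 at osh41 intron 1 and -0.14 to 0.34 at osh41 intron 4, and total mRNA from -0.25 to 0.041 for spf38, -0.21 to 0.49 for brr2 and -0.0060 to 0.58 for cwf10. The intron minus exon value of spf38 intron 4 was 0.37.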

Other observations

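Junction probes that join exons across a skipped exon, which report exon skipping, had a median log2 value of -0.24 over 308 probes in the Δaar2 strain, beside a median of -0.18 in the other strains. They were below 0 on both Δaar2 arrays in 185. By limma 0 rose and 0 fell, and at an unadjusted p under 0.05 there were 4 up and 18 down.

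Probes of noncoding RNAs had a median of -0.67 over 97 probes in the Δaar2 strain, beside -0.40 in the other strains. These probes were for tRNAs, snoRNAs and snRNAs, most of them for tRNAs. The 2 Δaar2 arrays differed, with medians of -0.30 on replicate 1 and -0.94 on replicate 2. In 68 probes the value was below 0 on both arrays, and in 9 it was above 0 on both. The latter were all snoRNA probes. By limma 0 rose and 0 fell, and at an unadjusted p under 0.05 there were 1 up and 14 down. Without the 6 arrays on which the deleted gene was not low, neither these probes nor those across skipped exons held a call (0 of 97 and 0 of 308).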
